A study of Bombyx mori with 6 samples.

Results

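Cytochrome P450 monooxygenases, UDP-glycosyltransferases (UGTs) and glutathione S-transferases (GSTs) were described in testes of the silkworm Bombyx mori. Members were taken by name: every gene of the count table whose NCBI symbol begins with Cyp or UGT and a number, or with GST, without Cyp18a1. Of 15884 genes in the table, 95 matched, and 86 of them had at least 10 reads summed over the 6 libraries: 36 P450s, 31 UGTs and 19 GSTs. Only 1839 genes of the table carried a symbol other than a LOC number, so family members known by a LOC number alone are not among the 86.

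The 3 families act on fat-soluble compounds, one after another or on their own. P450s add oxygen to steroids, fatty acids, plant toxins and insecticides, UGTs attach a sugar and GSTs attach glutathione, and the products are more soluble and more easily excreted. In insects the UGT sugar is glucose in most cases, and GSTs also act on products of lipid peroxidation. The best known sites of these enzymes in caterpillars are midgut, fat body and Malpighian tubule. Single P450s also make ecdysteroids, the moulting hormones.

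Testes were taken from larvae on day 5 of the fifth instar, the last larval stage. The wild-type group (WT) was strain 898WB and the other group the mutant line GMS, a genetic male sterile line, with 3 RNA sequencing libraries each. The labels name neither the gene that is mutated in GMS nor an agent, and they do not say whether a library came from 1 animal or from a pool. The comparison asks how transcript levels in testes of a sterile line depart from those of a fertile strain. Its p-values rest on the spread over 3 libraries a group, which may be technical.

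Libraries held 19627477 to 28358501 counted reads, and 3 reads in a library equal 0.106 to 0.153 CPM, a read count divided by the size of its library after TMM normalisation. WT replicate 3 stood apart from the other WT libraries: its correlation with them across genes (log2 CPM) was 0.985 and 0.982, against 0.995 between those and 0.995 between GMS libraries. The 5 male germ cell markers found by symbol, with the testis beta-tubulin Tub4 and the kinase TSSK among them, summed to 32055 to 36694 CPM in WT and 26281 to 26965 CPM in GMS, and none was at 0. Tub4 alone was at 29899 to 34414 CPM in WT and 24418 to 25076 CPM in GMS, so it made up most of these sums. TSSK and Tub4 were lower in GMS, Vlg and Dmc1 were higher, and Ago3 overlapped between the groups. Genes listed as markers of other tissues had reads too, and whether testis cells express them was not checked. The 8 fat body and haemolymph protein markers summed to 386 to 512 CPM in WT and 202 to 216 CPM in GMS, 7 of them lower and none at 0. In whole testes, fewer cells of a type and less RNA per cell cannot be told apart.

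Level per gene length, in reads scaled to gene length and library size (RPKM), placed a few members far above the rest. Cyp339a1, a P450 of the mitochondrial clan, was the most abundant member at 207 ± 3.17 RPKM in WT and 176 ± 1.80 in GMS (SD, n = 3 here and below). The sigma-class GSTs2 followed at 92.7 ± 24.7 and 129 ± 1.24 RPKM, and the omega-class GSTo1 at 61.9 ± 0.808 and 59.7 ± 2.66 RPKM. Cyp9g3, CYP340 and GSTo2 had mean levels over both groups of 24.2, 23.5 and 21.5 RPKM. UGTs were all lower than these, with UGT46A2 at 6.57, UGT44A1 at 5.23 and UGT41A1 at 4.93 RPKM over both groups.

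By CPM, which does not correct for length, 1 member carried most of the summed P450 reads and 1 most of the summed GST reads. P450s summed to 1435, 1393 and 1498 CPM in the WT libraries and to 1217, 1245 and 1202 CPM in the GMS libraries, and Cyp339a1 held 61.3% to 64.9% of each sum. UGTs summed to 146, 151 and 136 CPM in WT and 117, 117 and 121 CPM in GMS. UGT46A2 held 23.4% to 25.8% of the UGT sum in WT and 16.3% to 17.8% in GMS. For both families every GMS library lay below every WT library. GSTs summed to 865, 855 and 1148 CPM in WT and to 1107, 1122 and 1096 CPM in GMS, so that WT replicate 3 lay above all GMS libraries and the other WT libraries below them. GSTs2 held 57.1% to 68.8% of the GST sum in WT and 70.9% to 72.0% in GMS. Without GSTs2 the GST sum was 363 ± 4.13 CPM in WT and 318 ± 3.49 CPM in GMS, again with every GMS library below every WT library. The log2 change of the summed level was -0.24 for P450s and -0.29 for UGTs. For GSTs it was 0.21 with GSTs2 and -0.19 without it.

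**Figure D1:**
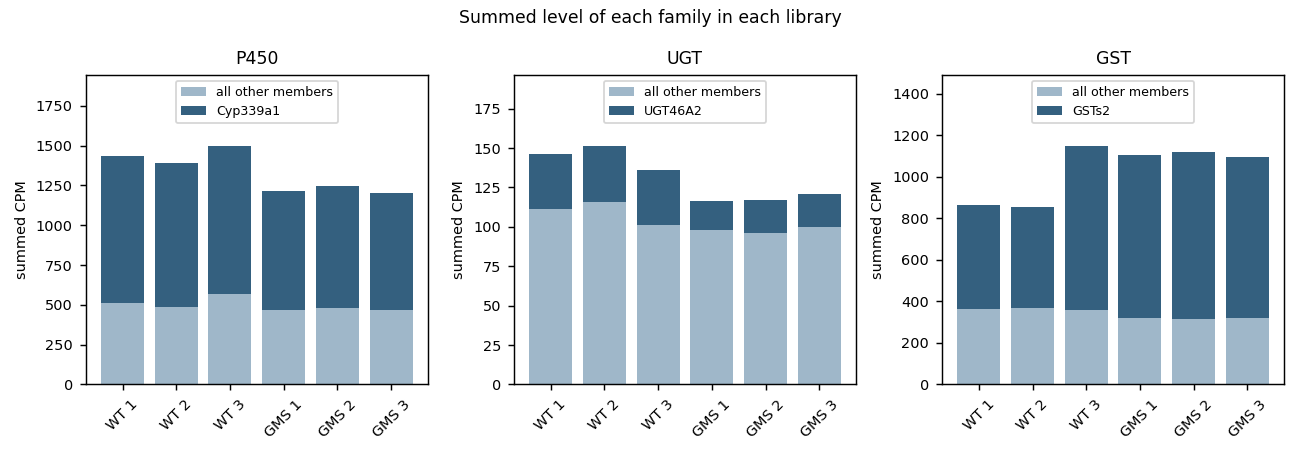
Summed TMM-normalised CPM (vertical axis, linear) of P450, UGT and GST members in each of the 6 libraries, with the most abundant member of each family in the dark part of the bar and all others in the light part. Cyp339a1 fills 61.3% to 64.9% of the P450 bars, and the GST bar of WT replicate 3, at 1148 CPM, stands above those of WT replicates 1 and 2.

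Of the 86 members, 69 had enough reads to be tested. In GMS 20 were lower and 10 were higher, and 39 did not pass the edgeR quasi-likelihood test at a Benjamini-Hochberg adjusted p of 0.05 over 12029 genes. The share called was 43.5% of the tested members, beside 36.2% of all genes tested. Lower members made up 29.0% beside 18.6% of all genes, and higher members 14.5% beside 17.6%. With at least a 2-fold change, 11 members (15.9%) were lower beside 5.25% of all genes, and 3 (4.35%) were higher beside 5.04%. Some rare ones, such as Cyp337a1, UGT10289B and UGT41A3, had enough reads for the test only through the group where they were higher. The counts with a 2-fold change are therefore a description, and their excess over all genes was not tested. The WT and GMS libraries did not overlap for 40 of the 69, which include all 30 called members, beside 51.0% of all genes. The median log2 change was -0.10 over the 69 and 0.05 over all genes tested.

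The families differed in how many members were called, a difference that was not tested. Of 29 tested P450s, 10 were lower, 4 higher and 15 did not pass, with a median log2 change of -0.16. Of 21 UGTs, 7 were lower, 5 higher and 9 did not pass, with a median of -0.17. Of 19 GSTs, 3 were lower, 1 was higher and 15 did not pass, with a median of 0.03. The call rate did not run with level in the same way in each family: called UGTs had a median level of 5.87 CPM and the others 0.866 CPM, while called GSTs had 7.73 and the others 7.57 CPM. Most fat body and haemolymph markers and the midgut marker tested were lower in the same libraries as most called members. The single midgut marker tested, the aminopeptidase Apn1, was at 0.990 to 1.62 CPM in WT and 0.296 to 0.535 CPM in GMS. Xdh1 and Xdh2, which make urate, were listed as Malpighian tubule markers, and whether other tissues express them was not checked. They summed to 38.8 to 41.4 CPM in WT and 49.1 to 52.9 CPM in GMS, both higher. The 5 haemocyte markers went both ways, with NimB and PPO2 higher, Scr-c and PPAE lower and PPO1 not tested, and summed to 89.0 to 109 CPM in WT and 121 to 135 CPM in GMS. The single muscle marker, Mf, was higher, at 1.32 to 1.96 CPM in WT and 2.51 to 2.61 CPM in GMS (edgeR adjusted p = 0.0454). The part of these tissues in the results below was not tested.

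**Figure D2:**
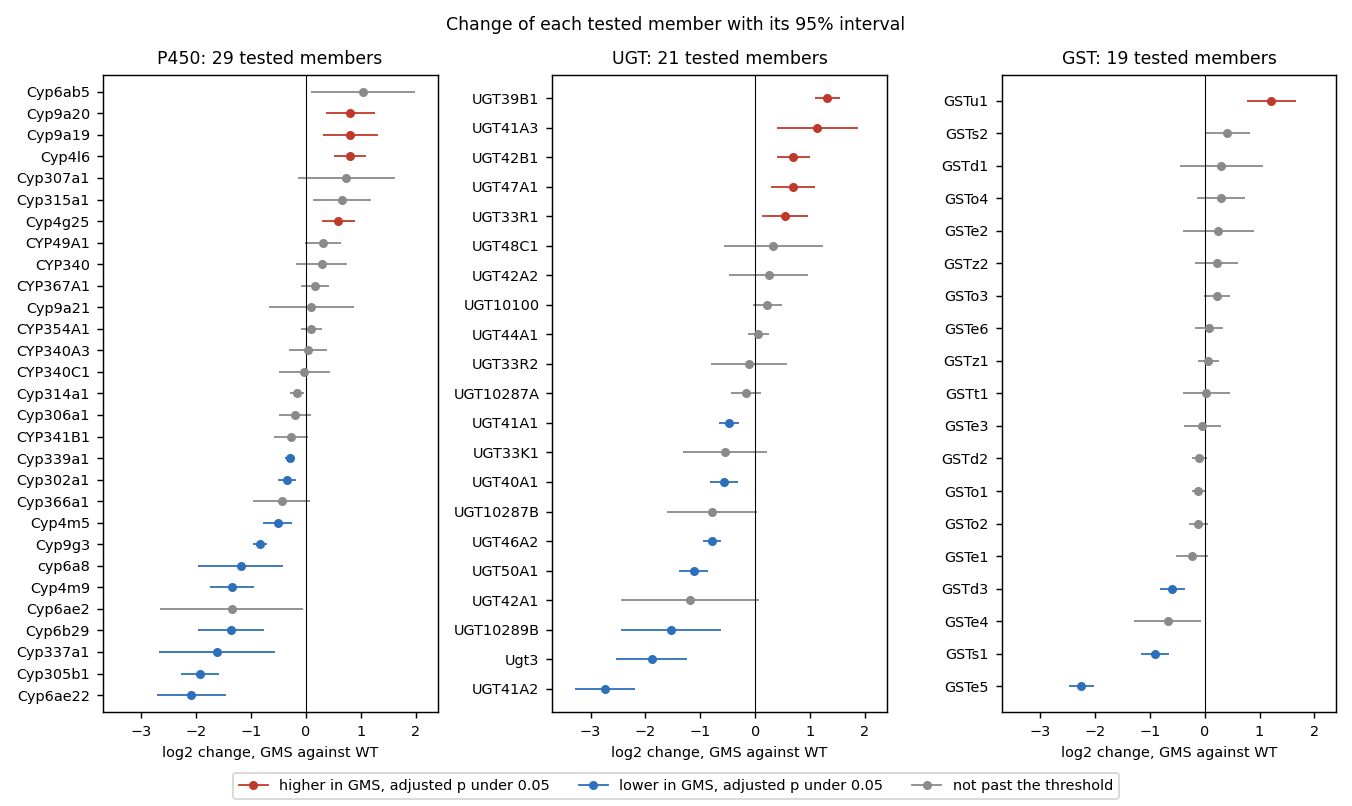
Log2 change (horizontal axis, GMS against WT, edgeR) of each of the 29 P450, 21 UGT and 19 GST members tested, with 95% intervals as bars and members ordered by change. Members called lower are blue (10, 7 and 3), those called higher red (4, 5 and 1), and those that did not pass grey.

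Among P450s the CYP3 clan, which holds most of the enzymes known for breaking down plant toxins and insecticides, had the most called members. Of 11 tested, 5 were lower and 2 were higher, with a median log2 change of -0.83, and 7 further members of the clan were too rare to test. Cyp9g3 was the only one of the 5 that was abundant. It stood at 141, 132 and 139 CPM in WT and at 76.4, 75.4 and 79.0 CPM in GMS, and the groups lay far apart. It fell by 0.83 on the log2 scale (SE 0.05, edgeR adjusted p = 2.31e-05).

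The other 4 lower members of the CYP3 clan were rare. Cyp6ae22, of a subfamily known in caterpillars for metabolism of plant compounds, was at 1.47, 1.80 and 2.36 CPM in WT and 0.345, 0.494 and 0.448 CPM in GMS (log2 -2.09, SE 0.27, edgeR adjusted p = 0.00094). Cyp6b29, of the subfamily known for furanocoumarin breakdown in swallowtail caterpillars, was at 4.15, 3.76 and 4.86 CPM in WT and 1.23, 2.39 and 1.31 CPM in GMS (log2 -1.37, SE 0.26, edgeR adjusted p = 0.00536). For both, all GMS libraries were below all WT libraries. Cyp337a1 was at 0.845, 0.696 and 0.613 CPM in WT and 0.443, 0.206 and 0.103 CPM in GMS, and cyp6a8 at 1.18, 0.614 and 0.801 CPM and 0.394, 0.329 and 0.414 CPM. Their log2 changes were -1.61 (SE 0.45) and -1.19 (SE 0.33), with edgeR adjusted p = 0.0281 and 0.0274. Both calls were lost when a library was left out, with adjusted p up to 0.0971 for Cyp337a1 and 0.0984 for cyp6a8. RefSeq lists CYP6AE2 as another name of cyp6a8 while a separate gene carries the symbol Cyp6ae2, so reads of these neighbours may be split. Cyp6ae2 itself ranged from 0.424 to 1.32 CPM in WT and from 0.206 to 0.690 CPM in GMS and did not pass.

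Both higher members of the CYP3 clan were of the CYP9A subfamily, also known for insecticide metabolism in caterpillars. Cyp9a20 was at 1.80, 1.96 and 2.03 CPM in WT and 2.51, 3.83 and 3.76 CPM in GMS, and Cyp9a19 at 1.10, 1.55 and 1.37 CPM and 2.07, 2.06 and 2.86 CPM. The groups did not overlap for either gene. The log2 changes were 0.81 (SE 0.19, edgeR adjusted p = 0.0146) and 0.81 (SE 0.21, adjusted p = 0.0223), and leaving out a library raised the adjusted p to as much as 0.0612 and 0.0837. Cyp9a21, the third member of the subfamily tested, had a log2 change of 0.10 with a 95% interval of -0.67 to 0.87 and did not pass.

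In the CYP2 clan Cyp305b1 was the single called member of 3. It was at 9.003, 8.10 and 7.83 CPM in WT and at 1.82, 2.55 and 2.14 CPM in GMS, a clear separation at moderate depth. It fell by 1.93 on the log2 scale (SE 0.15, edgeR adjusted p = 6.78e-05), the largest fall among P450s with a mean of at least 5 CPM. No role in the silkworm is assigned to it here.

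The CYP4 clan, which holds fatty acid hydroxylases in many animals, was divided: of 10 tested members 2 were lower, 2 higher and 6 did not pass. Cyp4m9 was at 2.98, 2.54 and 2.73 CPM in WT and 0.936, 1.03 and 1.24 CPM in GMS (log2 -1.35, SE 0.17, edgeR adjusted p = 0.000835). Cyp4m5 went the same way, from 7.53, 7.65 and 7.78 CPM to 5.76, 5.68 and 4.69 CPM (log2 -0.51, SE 0.12, adjusted p = 0.0116). In the other direction Cyp4l6 was at 5.40, 5.48 and 6.98 CPM in WT and 10.5, 10.7 and 10.03 CPM in GMS (log2 0.81, SE 0.12, edgeR adjusted p = 0.00212). Cyp4g25, whose subfamily makes cuticular hydrocarbons in Drosophila melanogaster, was at 5.48, 4.95 and 4.15 CPM and 7.54, 7.49 and 7.07 CPM (log2 0.59, SE 0.13, adjusted p = 0.00949). None of these 4 genes overlapped between groups, and all 4 stayed called without any single library.

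In the mitochondrial clan 2 of 5 tested members were lower, both by small amounts, none was higher and 3 did not pass. Cyp339a1 was at 924, 903 and 928 CPM in WT and 749, 767 and 737 CPM in GMS, a change of -0.29 on the log2 scale (SE 0.04, edgeR adjusted p = 0.00103). Without this gene the log2 change of the P450 sum was -0.15 in place of -0.24. Cyp302a1, the disembodied gene of ecdysone synthesis, was at 35.5, 37.6 and 33.1 CPM in WT and 28.1, 27.7 and 28.2 CPM in GMS (log2 -0.34, SE 0.07, edgeR adjusted p = 0.00874). With all 6 libraries it was the only called member of the 5 ecdysteroid synthesis P450s. Cyp314a1, the shade gene that makes the active hormone, had a change of -0.16 (95% interval -0.29 to -0.03, adjusted p = 0.0603) and Cyp315a1, the shadow gene, one of 0.66 (0.13 to 1.20, adjusted p = 0.0564). The groups did not overlap for either gene. Without WT replicate 3 both were called, Cyp314a1 lower (log2 -0.19, edgeR adjusted p = 0.00703) and Cyp315a1 higher (log2 0.85, adjusted p = 0.000617). Leaving out other single libraries raised the edgeR adjusted p to as much as 0.195 for Cyp314a1 and 0.178 for Cyp315a1. Cyp306a1 (phantom) and Cyp307a1 (spook), both of the CYP2 clan, had changes of -0.20 and 0.74. Neither passed with or without WT replicate 3. The last member of the mitochondrial clan, CYP49A1, had a change of 0.31 (95% interval -0.02 to 0.63) and did not pass.

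UGTs held the largest single change. UGT41A2 was at 9.08, 10.97 and 8.30 CPM in WT and at 1.53, 0.905 and 1.79 CPM in GMS, so every GMS library was below 2 CPM and every WT library above 8 CPM. It fell by 2.73 on the log2 scale (SE 0.23, edgeR adjusted p = 0.000122), which is 6.65-fold. Its close relative UGT41A1, the more abundant of the pair, fell less, from 21.9, 23.1 and 20.6 CPM to 15.4, 16.1 and 15.5 CPM (log2 -0.48, SE 0.08, adjusted p = 0.00291). The third gene of the UGT41 family, UGT41A3, was rare and higher in GMS, at 0.331, 0.286 and 0.330 CPM in WT and 0.739, 0.864 and 0.517 CPM in GMS (log2 1.13, SE 0.31, adjusted p = 0.0271). It lost its call without some single libraries, with adjusted p up to 0.0966.

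UGT46A2, the most abundant UGT, was at 34.9, 35.4 and 35.2 CPM in WT and 19.0, 20.7 and 21.1 CPM in GMS (log2 -0.79, SE 0.07, edgeR adjusted p = 0.000157). UGT50A1, of a family present in nearly all insects studied, was at 16.7, 16.7 and 13.5 CPM in WT and 7.09, 6.95 and 7.48 CPM in GMS (log2 -1.12, SE 0.11, adjusted p = 0.000276). Both were clear of overlap in every library. In the UGT40 family 3 of 6 tested members were lower and none was higher. UGT40A1 went from 7.50, 8.23 and 6.93 CPM to 5.07, 5.02 and 5.14 CPM (log2 -0.57, SE 0.11, adjusted p = 0.00522). Ugt3 went from 1.84, 1.64 and 1.23 CPM to 0.493, 0.494 and 0.310 CPM (log2 -1.89, SE 0.28, adjusted p = 0.00164), and UGT10289B from 0.478, 0.655 and 0.801 CPM to 0.246, 0.123 and 0.276 CPM (log2 -1.53, SE 0.39, adjusted p = 0.0196). The last of these lost its call without some single libraries, with adjusted p up to 0.0649.

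Of the 5 higher UGTs, UGT41A3 shares its family with members called lower, and the other 4 belong to families with no member called lower. The UGT39 and UGT47 families had only 1 tested member each. In the UGT42 family UGT42A1 (log2 -1.19) and UGT42A2 (0.24) did not pass. In the UGT33 family UGT33K1 (-0.55) and UGT33R2 (-0.12) did not pass. UGT39B1 was at 6.43, 5.77 and 5.52 CPM in WT and 15.4, 14.2 and 14.6 CPM in GMS, the largest rise among tested members and 2.49-fold (log2 1.32, SE 0.10, edgeR adjusted p = 6.28e-05). UGT42B1 was at 5.95, 6.59 and 5.89 CPM in WT and 8.62, 11.4 and 9.83 CPM in GMS (log2 0.69, SE 0.13, adjusted p = 0.00482). UGT47A1 and UGT33R1 were rarer, with means of 0.946 and 2.08 CPM in WT and 1.53 and 3.05 CPM in GMS. Their log2 changes were 0.69 and 0.55, with edgeR adjusted p = 0.0174 and 0.0472. Neither call was stable. UGT47A1 lost it without WT replicate 1 or 3 or GMS replicate 2 or 3, with edgeR adjusted p up to 0.0664. UGT33R1 lost it without any one library other than GMS replicate 2, with adjusted p up to 0.143. UGT44A1, among the 3 UGTs of highest level, was at 20.1, 20.9 and 18.1 CPM in WT and 20.3, 20.1 and 20.96 CPM in GMS. Its groups overlapped, and its change of 0.06 on the log2 scale (95% interval -0.14 to 0.25) turned its sign with another scaling.

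GSTs were the family with the smallest share of called members over all 6 libraries, though not without WT replicate 3, when 10 of 19 GSTs and 11 of 23 UGTs were called. The epsilon class, known in insects for resistance to insecticides, contained the gene with the second largest fall. GSTe5 was at 34.1, 35.4 and 29.5 CPM in WT and 7.19, 6.66 and 7.03 CPM in GMS, a 4.74-fold difference (log2 -2.25, SE 0.10, edgeR adjusted p = 4.59e-06). None of the other 5 epsilon genes passed. Their log2 changes ran from -0.67 for GSTe4 to 0.25 for GSTe2. The epsilon class as a whole went from 55.7, 59.3 and 50.2 CPM in WT to 27.2, 27.1 and 28.1 CPM in GMS, with GSTe5 at 32.99 ± 3.09 of the mean 55.1 CPM in WT and 6.96 ± 0.271 of 27.5 CPM in GMS.

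In the sigma class, which acts on lipid peroxidation products in Drosophila melanogaster, 1 of 2 genes was called. GSTs1 was at 7.28, 6.997 and 7.50 CPM in WT and 3.60, 4.15 and 3.86 CPM in GMS (log2 -0.90, SE 0.11, edgeR adjusted p = 0.000634), with no overlap. GSTs2, at 501, 488 and 790 CPM in WT and 786, 808 and 777 CPM in GMS, did not pass (log2 0.41, 95% interval 0.01 to 0.82, adjusted p = 0.102). In the delta class GSTd3 was lower, from 12.3, 12.1 and 11.2 CPM to 7.44, 7.69 and 8.59 CPM (log2 -0.59, SE 0.10, adjusted p = 0.00319), while GSTd1 and GSTd2 did not pass. GSTu1, an unclassified GST, was the only higher one, at 1.69, 2.09 and 1.74 CPM in WT and 3.74, 3.74 and 5.28 CPM in GMS (log2 1.22, SE 0.19, adjusted p = 0.00233).

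The 4 omega, 2 zeta and 1 theta genes did not pass. Omega GSTs reduce disulphides and dehydroascorbate, and zeta GSTs take part in tyrosine breakdown. GSTo1 was at 154, 156 and 157 CPM in WT and 147, 138 and 147 CPM in GMS, with a change of -0.11 on the log2 scale (95% interval -0.22 to -0.001). Its groups did not overlap, and the adjusted p was 0.105. For GSTo2, at 43.99, 43.4 and 38.9 CPM in WT and 38.7, 40.6 and 37.3 CPM in GMS, the change was -0.12 (-0.29 to 0.06). The intervals of both genes exclude a 2-fold change in either direction.

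**Figure D3:**
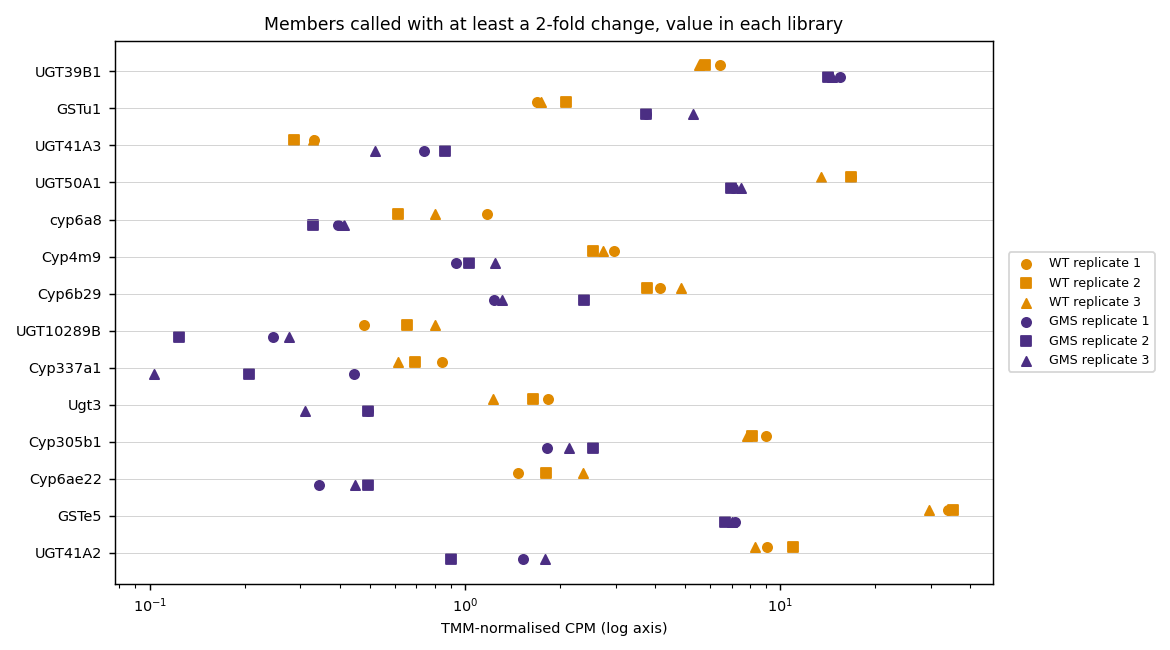
Normalised CPM (horizontal log axis) in each of the 6 libraries for the 14 members called with at least a 2-fold change, WT in orange and GMS in purple, with 1 marker shape per replicate number. The 11 lower members have every GMS library to the left of every WT library, and the 3 higher members, UGT39B1, GSTu1 and UGT41A3, show the reverse.

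How many members passed depended on WT replicate 3. Without it 44 of 72 tested members were called, 30 lower and 14 higher, beside 29.0% of all genes lower and 29.0% higher, and 28 of the 30 members called with all libraries were called both ways. Among P450s the count went from 14 to 23, among GSTs from 4 to 10 and among UGTs from 12 to 11. Over the 34 members with a mean of at least 5 CPM, GSTs2 and CYP340 exceeded their levels in WT replicates 1 and 2 by more than 1.5-fold in WT replicate 3. No member exceeded both of the others in that way in WT replicate 1 or in WT replicate 2. Over all 8987 genes at that level, 628 did so in WT replicate 3, against 5 and 2 in replicates 1 and 2. CYP340, of the CYP4 clan, was at 67.5, 61.7 and 108 CPM in WT and 98.8, 100 and 90.7 CPM in GMS. In GSTs2 the third WT library lay within the GMS values and in CYP340 above them, while the other WT libraries lay below. Without that library the log2 change was 0.63 for GSTs2 and 0.53 for CYP340, against 0.41 and 0.29 with it. The edgeR adjusted p was then 1.54e-10 and 1.09e-06, but both genes were picked for their value in that library. These p-values are therefore no support for a change. As each library was left out in turn, the edgeR adjusted p reached 0.273 for GSTs2 and 0.608 for CYP340.

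**Figure D4:**
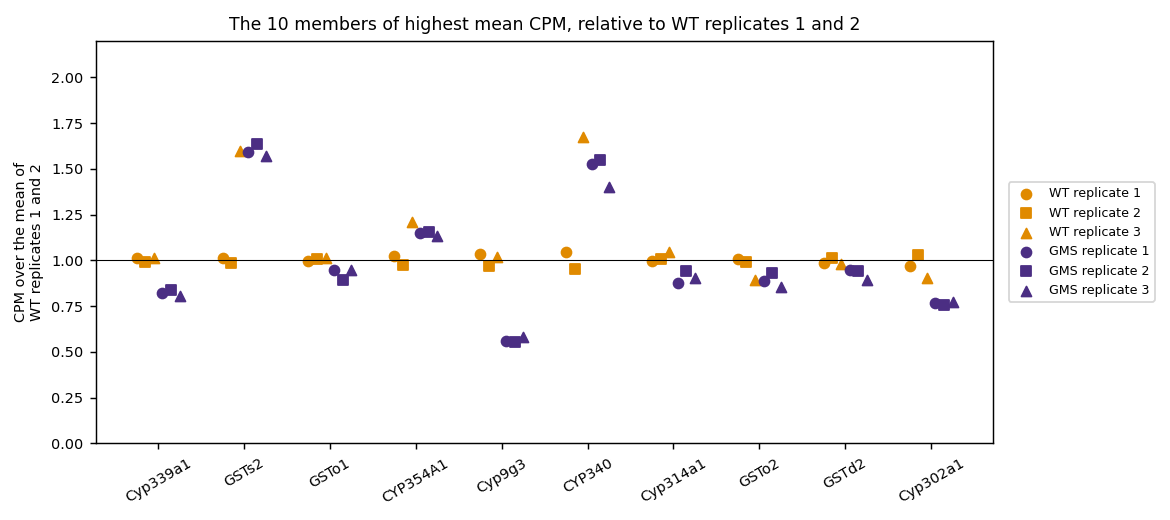
CPM of the 10 members of highest mean CPM in each library, divided by the mean of WT replicates 1 and 2 (vertical axis, linear, line at 1), WT in orange and GMS in purple. For GSTs2 and CYP340 the triangle of WT replicate 3 stands above the other WT points, among the GMS points for GSTs2 and above them for CYP340, while for Cyp339a1 and Cyp9g3 the 3 WT points lie together above GMS.

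The larger changes rested partly on rare genes. Among the 34 members with a mean of at least 5 CPM, a limit chosen after the data were seen, 13 were lower and 4 higher, beside 18.4% and 17.3% of the 8987 genes at that level. The members with at least a 2-fold change were then GSTe5, Cyp305b1, UGT41A2 and UGT50A1, all lower, and UGT39B1, higher. The share of all genes at that level with such a change was not computed. Members of these families are similar in sequence, and how reads that fit several genes were counted is not given in the sources used here. Values of close relatives such as UGT10287A and UGT10287B are therefore uncertain.

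By gene order in RefSeq, 53 of the 95 genes lay in 14 runs with at most 5 other genes between one member and the next. Neighbours did not always go the same way. The longest run held 13 members, in the order UGT10286, UGT10287A, UGT10287B, UGT10288, Ugt3, UGT10289B, UGT10100, UGT40A1, UGT40B4, UGT40B3, GSTe4, GSTe5 and GSTe1. Of its 9 tested genes 4 were lower, which are Ugt3, UGT10289B, UGT40A1 and GSTe5, none was higher and 5 did not pass. UGT10100, between lower genes, was at 7.63 ± 0.540 CPM in WT and 8.88 ± 0.910 in GMS (log2 0.22, 95% interval -0.05 to 0.49), and GSTe1, next to GSTe5, at 10.8 ± 1.38 and 9.26 ± 0.818 CPM (log2 -0.23, -0.52 to 0.07).

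The UGT41 genes lie in the order UGT41A3, UGT41A1, UGT41A2, and their log2 changes along it were 1.13, -0.48 and -2.73. Cyp4m9 and Cyp4m5 are neighbours and were both lower. Cyp9a20, Cyp9a19 and Cyp9a21 are neighbours, the first 2 higher and the last not called. GSTs2 and GSTs1 are neighbours too, as are GSTd3 and GSTd2, and 1 gene of each pair was lower. In the run of 5 from UGT43B1 to UGT44A1, UGT42B1 was higher and the other 3 tested genes did not pass. A run of 9 UGT33 and UGT340 genes held no member with enough reads to test.

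**Figure D5:**
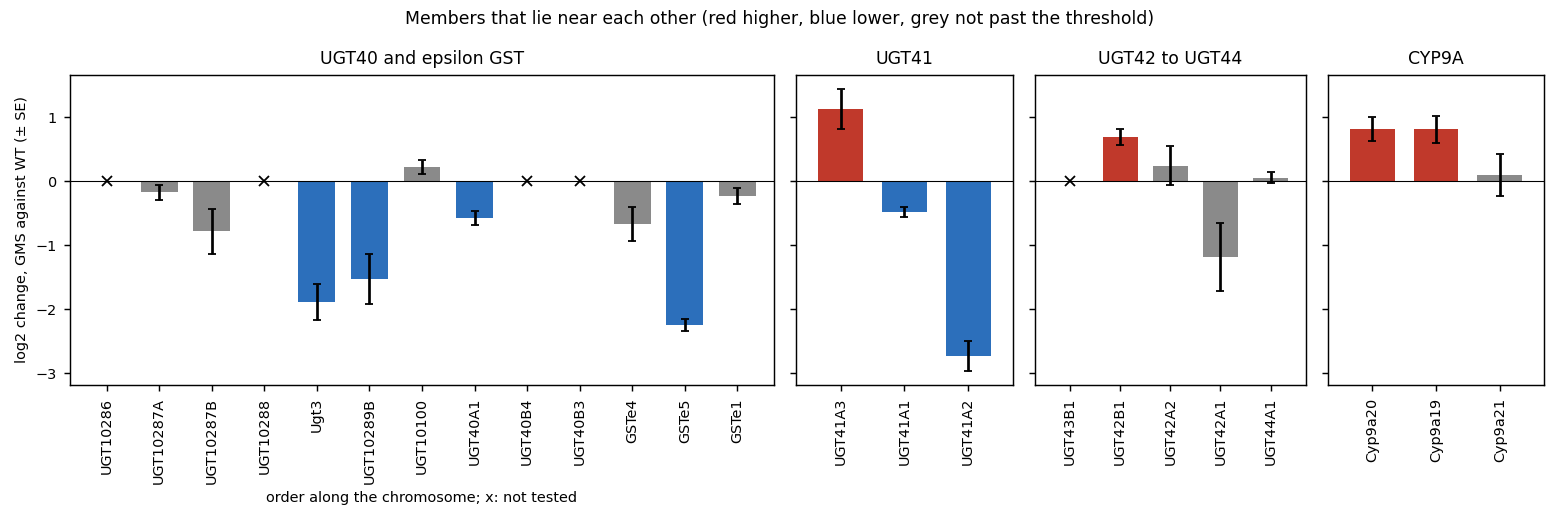
Log2 change (vertical axis, GMS against WT, bars with SE) of members in 4 runs of neighbours, in gene order from left to right, with crosses for members that were not tested. In the run of UGT40 and epsilon GST genes 4 bars are blue (lower) and none red (higher), and in the UGT41 run the values pass from 1.13 to -2.73.

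Genes outside the 3 families that work beside them were taken from a list by symbol, and 15 matched. Of 9 tested, 4 were lower, 1 was higher and 4 did not pass, with a median log2 change of -0.26. Catalase (Cat), which removes hydrogen peroxide, was at 64.7 ± 2.25 CPM in WT and 45.4 ± 2.45 in GMS (log2 -0.51, edgeR adjusted p = 0.000861). The transporter gene abcb was at 683 ± 44.8 and 571 ± 9.18 CPM (log2 -0.26, adjusted p = 0.00949). Sult, a sulfotransferase, was at 3.67 ± 0.206 and 1.33 ± 0.299 CPM (log2 -1.47, adjusted p = 0.000756). Of the carboxylesterases, CCE-un1 was at 3.17 ± 0.844 and 0.785 ± 0.273 CPM (log2 -2.03, adjusted p = 0.00179) and cce-7 at 16.4 ± 1.10 and 20.6 ± 1.73 CPM (log2 0.33, adjusted p = 0.0305). The groups did not overlap for these 5. The superoxide dismutases SOD and Sod2, the glutathione peroxidase Gpx and Adh did not pass.

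Many members were barely present in testis. Besides the 69 tested, 7 P450s and 10 UGTs had 10 to 77 reads in all and were not tested. UGT10288 had 8, 4 and 0 reads in the WT libraries and 0 in each GMS library, so that WT replicate 3 overlapped GMS. With 3 counts set as the floor of the GMS group, WT was 4.04-fold above that floor. The 95% exact counting interval of the GMS to WT ratio reaches up to 0.356, so a smaller fall than 4.04-fold is not excluded. UGT10286, which glucosylates the flavonoid quercetin in the silkworm, had 4 and 6 reads. Cyp332a1 had 20 reads over WT and 5 over GMS, which scaled to library size is a ratio of 0.247 (95% exact counting interval 0.0726 to 0.679). CYP6AN2 had 13 and 36 reads, a ratio of 2.74 (1.42 to 5.63), and Cyp6ae9 had 6 and 22, a ratio of 3.63 (1.43 to 10.9). UGT33Q1 and UGT340C2 had 6 and 4 reads in WT and 21 and 16 in GMS, with ratios of 3.46 (1.35 to 10.5) and 3.96 (1.28 to 16.3). The intervals of the other 11 of these 17 genes, without UGT10288, include 1. A further 9 of the 95 genes had under 10 reads: CYP338A1, Cyp6au1, UGT33D2, UGT33D3, UGT33D7, UGT33N1, UGT39C1, UGT40B3 and UGT40B4, the last 2 with no read in any library. These intervals cover counting error only and compare the libraries, not the strains.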

How the data were processed

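The 6 libraries were made from testis total RNA with a TruSeq kit, per the labels' protocols, and such reads do not mark the strand. HISAT2 2.1.0 and featureCounts 1.6.2 were used, per the submitters' processing notes. Genome build, annotation and the treatment of reads with several matches were not given in the sources used here. Raw read counts per gene, deposited by the authors, were used for all tests, and RPKM values, also deposited, for levels per length and as an alternative. Symbols came from the RefSeq gene table of assembly ASM3026992v2 (13030 of 15884 gene numbers matched), which also gave gene order. UGT families were read from systematic names among the synonyms, where RefSeq lists one.

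The edgeR 4.0.16 quasi-likelihood test (R 4.3.3) was fitted on the whole table with TMM factors and filterByExpr, which kept 12029 genes, with Benjamini-Hochberg adjustment over them. Levels are TMM-normalised CPM. The script was tested on simulated data. Libraries were not taken as pairs in the main test. The deviations of same-numbered libraries from their group means correlated at 0.0483, -0.169 and -0.169. These values show no pairing but cannot exclude one, since WT replicate 3 dominated the WT deviations. Its deviations correlated at -0.709 and -0.826 with those of WT replicates 1 and 2. Alternatives used DESeq2 1.42.0, limma 3.58.1, other scalings, filters and units, and each library left out. Members and lists were chosen with earlier results of these data known. Genes named are the called members with a 2-fold change, the 3 of highest RPKM and the 5 further called ones of smallest p in each family, members with 0 reads in 1 strain, and the called partner genes. Cyp9a19, Cyp9a20, Cyp4m5, UGT33R1, the other ecdysteroid P450s, the neighbours and the rare genes are named beyond this rule, a choice made with their values known. The symbol ap was left out of the fat body markers because it is spelled as the wing gene apterous, not as apolipophorin. No sequence is shown.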

Additional observations from a re-analysis of the deposited data

How the results depend on the processing

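Of 30 members called, other scalings kept 29 or 30, and none reversed. Limma-voom with quality weights, which gave WT replicate 3 a weight of 0.193 against 0.964 to 2.38 for the others, called 48 members, 18 of them higher, with 23 P450s and 10 GSTs. The limit of 5 CPM, chosen after the data were seen, left 17 called, 4 higher and 13 lower, with 7 P450s and 7 UGTs. Calls were those of the same fit, and the other called members had a lower mean. DESeq2 called 24 members. Leaving out each library gave 23 to 44 called, 5 to 14 higher, 10 to 23 P450s and 4 to 10 GSTs. The 5 came without WT replicate 1 and the highest values without WT replicate 3, and without GMS replicate 3 there were 6 higher. With the replicate number as a block 27 members were called, without UGT33R1, UGT41A3 and UGT47A1. The change of UGT44A1 turned to -0.006 with upper-quartile factors and ranged from -0.05 to 0.098 as each library was left out. With library totals only, 65.8% of all called genes were higher against 48.5%, the median over all genes was 0.15 against 0.05, and the summed log2 changes were -0.14 for P450s and -0.19 for UGTs. Without the most abundant member they were -0.15 for P450s, -0.16 for UGTs and -0.19 for GSTs, a reversal for GSTs that follows from taking out GSTs2. The other causes were not tested. On the log2(RPKM + 1) scale, which understates changes of low genes, the change was -1.38 for UGT41A2, -0.90 for Cyp305b1 and -0.41 for Cyp6ae22, against -2.73, -1.93 and -2.09. A floor of 3 reads is 0.106 to 0.153 CPM in a library before TMM scaling, which limits the rarest members.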
